A study of Homo sapiens with 6 samples.

Results

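Of the 57773 genes in the count table, 10 are described here: the YAP/TEAD targets CYR61, CTGF and ANKRD1, the junctional proteins AMOTL1, AMOTL2 and AJUBA, the kinases LATS1 and LATS2, the coactivator YAP1 and the transcription factor TEAD1. They were chosen by symbol with their fold changes between the Apatinib and control groups already known, so their values in that comparison are given as a description with no p value, and any count of those meeting a threshold is a description too. All 10 were found, each in a single row, and 9 passed the filter on low counts that kept 16290 genes. ANKRD1 did not pass it.

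The libraries came from SW872, an established human liposarcoma cell line, grown in RPMI-1640 with serum. In the Apatinib group, 3 libraries came from cells given 18 μM Apatinib for 24 h, and in the control group 3 libraries came from untreated cells of the same line. The labels name no genetic change in either group. Apatinib is a small-molecule inhibitor of the VEGF receptor encoded by KDR and also acts on the kinases encoded by KIT, RET and SRC. In the 6 libraries KDR had 4 to 11 counts, KIT 0 to 1 and RET 0 to 7, so these RNAs were near the limit of detection in this line. SRC was well detected, at 6.02 to 6.37 log2 CPM with Apatinib against 5.67 to 6.03 in the control, with overlap. The labels do not say whether a vehicle was added to the control cells, and the treatment protocol text is the same for all samples while the treatment field separates them. The study's methods speak of biological replicates, but the labels do not say that the libraries came from separate cultures, and the p values below measure only the spread between these libraries.

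In the Hippo pathway, MST kinases phosphorylate and activate LATS kinases, which phosphorylate the coactivators YAP and TAZ so that these are held in the cytoplasm or degraded. When this restraint is low, as in spread cells under actin tension, YAP and TAZ enter the nucleus, bind TEAD transcription factors and raise growth and matrix genes. CYR61 and CTGF, now also named CCN1 and CCN2, encode secreted matricellular proteins and are among the most widely used readouts of YAP/TEAD activity, although serum response factor (SRF), TGF-beta and AP-1 also act on them.

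The sequence that TEAD factors recognise has the core hexamer GGAATG, or CATTCC on the other strand, so the promoters of the listed genes were searched for it before turning to expression. RefSeq promoter windows of 300 bases (build GRCh38.p14, both strands searched) were matched for 8 of the 10 genes, with 11 windows. CYR61 and TEAD1 were not matched. The CTGF promoter is shown because it was the only window of the 11 with 3 matches, in capitals, over the 140 bases from position -200 to -61 before the start, at chr6:131951433-131951572 on the minus strand:

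CTGF promoter: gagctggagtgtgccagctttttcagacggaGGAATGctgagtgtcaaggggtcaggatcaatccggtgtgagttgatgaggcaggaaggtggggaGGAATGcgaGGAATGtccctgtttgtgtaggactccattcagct

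The 3 matches began at positions -169, -104 and -95, and the last pair was separated by 3 bases. Of all 35116 windows, from 27305 genes, 14% held at least 1 match, 1.37% at least 2 and 0.128% at least 3. Matches stood in 6 of the 11 windows here, those of 6 of the 8 matched genes, which is a count of letters in these windows and says nothing of binding in SW872 cells. Stretches of 30 bases around the matches of the other 5 genes are shown, with the hexamer in capitals, so that their flanks can be compared with those in CTGF:

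ANKRD1, position -220, chr10:90921290-90921319, minus strand: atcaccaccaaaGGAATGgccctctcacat

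ANKRD1, position -128, chr10:90921198-90921227, minus strand: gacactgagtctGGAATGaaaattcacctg

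AMOTL2, start 2, position -69, chr3:134374499-134374528, minus strand: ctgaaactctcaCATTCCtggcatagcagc

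LATS2, position 10, chr13:21061560-21061589, minus strand: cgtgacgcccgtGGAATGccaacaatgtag

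AJUBA, start 2, position -59, chr14:22976884-22976913, minus strand: gggaagttggctGGAATGaagccaaagcaa

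YAP1, position -162, chr11:102110273-102110302, plus strand: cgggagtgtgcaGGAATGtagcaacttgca

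ANKRD1 held 2 matches and the rest of these genes 1 each, while the AMOTL1 window and both LATS1 windows held none. The AP-1 motif TGANTCA, which can share letters with an end of the hexamer, was in 7.71% of all windows, and here in that of ANKRD1 and in 1 of the 2 LATS1 windows. The map of matches by distance from the start shows that the LATS2 match alone lay after the annotated start. Distal enhancers, where much TEAD binding takes place, were outside the windows.

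**Figure D1:**
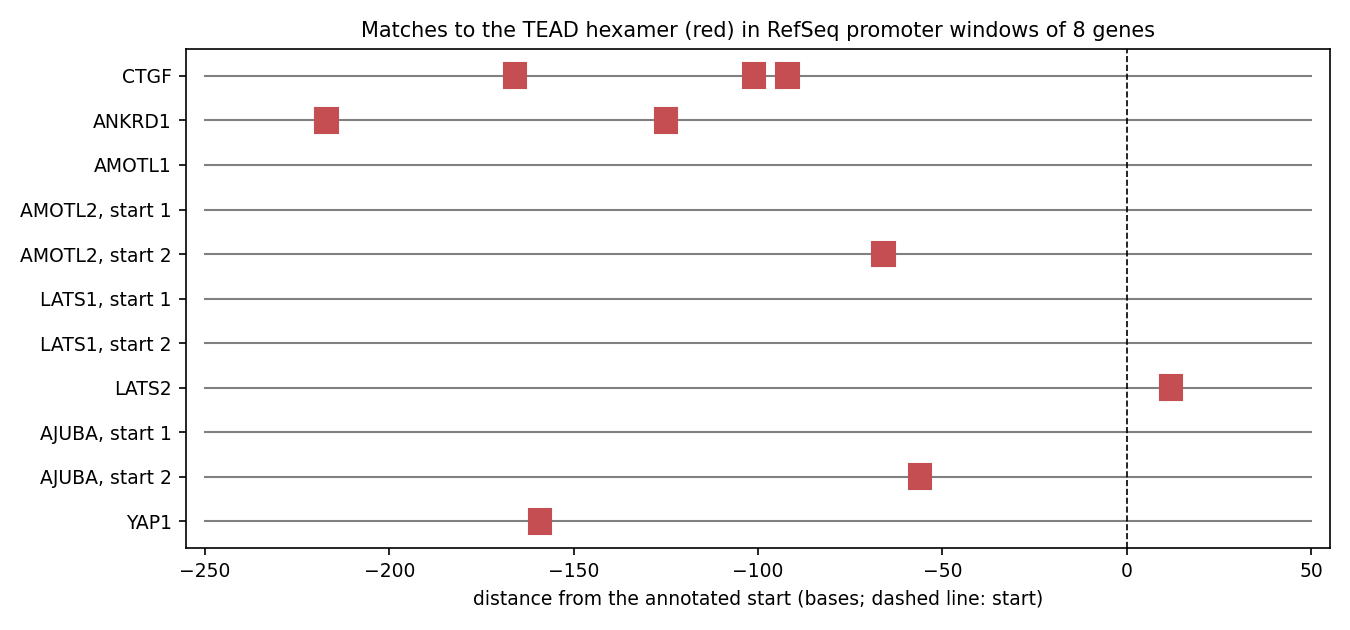
Matches to the TEAD hexamer (red boxes) in the 11 RefSeq promoter windows of 8 genes, by distance in bases from the annotated start (dashed line). CTGF has 3 matches, ANKRD1 has 2, and AMOTL2, LATS2, AJUBA and YAP1 have 1 each.

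The libraries held 17275850 to 18081919 counts in the Apatinib group (median 17352210) and 17043314 to 22067558 in the control group (median 18139437). Expression is given as CPM, counts scaled to a common library size with edgeR's TMM factors, and a log2 fold change above 0 means a higher level with Apatinib. The mitochondrial share of counts was 5.16% to 5.69% with Apatinib and 4.47% to 5.11% in the control, without overlap, and fewer genes had a count in the Apatinib libraries (24414 to 25169) than in the control libraries (25569 to 25866); the part of these differences in the results below was not tested. Control replicates 1 and 2 lay closer together than any other pair of the same group, with a chi-square of 2.27 per gene on average against 18.2 to 44.5 for the others. Pairs from different groups had 26.5 to 78.4, so that some libraries of 1 group lay as far apart as libraries of different groups. Controls 1 and 2 differed by more than the sampling noise, which gives about 1, and were counted as 2 libraries, but this does not show that they came from separate cultures, and with them summed into 1 the genes called over the whole table numbered 292 in place of 1866. All 7 mesenchymal markers passed the filter and summed to 6461 to 7473 CPM with Apatinib and 5490 to 5886 in the control. Of the 6 adipocyte markers, PPARG, LPL and PLIN1 passed and ADIPOQ, FABP4 and CEBPA had 0 counts in every library (summed level 65.4 to 89.4 against 61.4 to 63.0 CPM). ADIPOQ and FABP4, markers of mature fat cells, were also at 0 in the FPKM files, but CEBPA had 0.0579 to 0.319 FPKM there, so its 0 in the count table does not show that its RNA was absent. Markers of other cell types were low: the 3 leukocyte markers summed to 2.29 to 3.84 against 4.33 to 5.17 CPM with PTPRC at 0, and the 3 endothelial markers matched summed to 2.71 to 4.41 against 2.86 to 3.99 CPM. The 5 epithelial markers summed to 124 to 156 against 93.3 to 109 CPM, nearly all of it from the keratins KRT8 and KRT18, with EPCAM at 1 to 7 counts and CDH1 at 0 to 2. Among the markers tested, COL3A1, LPL, KRT8 and VWF were DEGs that were higher with Apatinib and CDH5 was lower, by the criteria given below. The mesenchymal, adipocyte, epithelial and leukocyte sums did not overlap between the groups, and their part in the results was not tested.

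CYR61 and CTGF were far higher in the cells given Apatinib. CYR61 (ENSG00000142871), a secreted protein that binds integrins and heparan sulfate, had 2446, 2139 and 2487 counts in Apatinib replicates 1 to 3, against 488, 583 and 680 in the control libraries in the same order. This was 142, 121 and 142 CPM against 28.2, 32.1 and 31.1 CPM. The lowest Apatinib library stood far above the highest control library. The mean was 135 ± 12.5 CPM with Apatinib and 30.5 ± 2.03 in the control (SD, n = 3), a log2 fold change of 2.15 (SE 0.128), or 4.43-fold. In bulk RNA, a change in the share of cells that express a gene and a change in the RNA per cell cannot be told apart.

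CTGF (ENSG00000118523), which promotes matrix production in connective tissue, had 655, 727 and 721 counts with Apatinib against 139, 183 and 171 in the control, or 38.1, 41.0 and 41.3 CPM against 8.02, 10.1 and 7.83 CPM. Again the groups stood far apart, and the Apatinib libraries lay within 1.08-fold of each other. Its mean was 40.1 ± 1.77 CPM with Apatinib and 8.64 ± 1.24 in the control (SD, n = 3), a log2 fold change of 2.22 (SE 0.148), or 4.65-fold. The CTGF and CYR61 fold changes differed by less than the SE of either. On the length-corrected FPKM scale the ratio of the CYR61 level to the CTGF level was 3.03, 2.49 and 2.84 with Apatinib against 2.68, 2.87 and 3.51 in the control, with overlap between the groups.

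ANKRD1 (ENSG00000148677), a nuclear and sarcomeric ankyrin repeat protein that is a classical YAP target, was barely detected. It had 7, 38 and 9 counts with Apatinib against 5, 6 and 6 in the control, or 0.407, 2.14 and 0.515 CPM against 0.289, 0.330 and 0.275 CPM. The 3 Apatinib libraries lay above the 3 control libraries, but most of the Apatinib counts, 38, came from Apatinib replicate 2. At counts this low no fold change is given.

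AMOTL2 (ENSG00000114019), an angiomotin that tethers YAP at cell junctions and is itself a YAP target, had 1101, 1541 and 958 counts with Apatinib against 643, 611 and 791 in the control. Its level was 64.0, 87.0 and 54.8 CPM against 37.1, 33.6 and 36.2 CPM, highest in Apatinib replicate 2 and without overlap between the groups. The log2 fold change was 0.94 (SE 0.165), or 1.92-fold. Without Apatinib replicate 2 it was 0.74. AMOTL1 (ENSG00000166025), its relative with the same tethering role, stood at 176, 189 and 160.0 CPM against 137, 143 and 141 CPM. Its groups did not overlap either, with a log2 fold change of 0.32 (SE 0.115).

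AJUBA (ENSG00000129474) encodes a LIM-domain protein that binds LATS kinases and limits their activity. It had 1869, 3161 and 1565 counts with Apatinib against 1291, 1198 and 1383 in the control, or 109, 178 and 89.6 CPM against 74.5, 65.9 and 63.4 CPM. Every Apatinib library was above every control library, but Apatinib replicate 2 held 1.99 times the level of Apatinib replicate 3. The log2 fold change was 0.89 (SE 0.214), or 1.85-fold, and it was 0.55 without Apatinib replicate 2.

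LATS2 (ENSG00000150457) and LATS1 (ENSG00000131023) encode the kinases that phosphorylate YAP and TAZ, and LATS2 is also a YAP target that acts in negative feedback. LATS2 had 514, 558 and 479 counts with Apatinib against 390, 381 and 488 in the control, or 29.9, 31.5 and 27.4 CPM against 22.5, 21.0 and 22.4 CPM. Its groups did not overlap, and its log2 fold change was 0.43 (SE 0.128). LATS1 had 30.9, 31.6 and 32.2 CPM against 38.2, 37.4 and 30.2 CPM, so that control replicate 3 was below all Apatinib libraries and the groups overlapped. Its log2 fold change was -0.16 (SE 0.133). The ratio of LATS2 to LATS1 on the FPKM scale was 1.19, 1.25 and 1.06 with Apatinib against 0.718, 0.711 and 0.966 in the control, higher in every Apatinib library than in every control library. The corresponding ratio of AMOTL2 to AMOTL1 was 0.747, 0.931 and 0.726 against 0.545, 0.463 and 0.526, also without overlap.

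For the coactivator and its DNA-binding partner the groups overlapped. YAP1 (ENSG00000137693) had 3700, 4896 and 4220 counts with Apatinib against 4141, 4669 and 4808 in the control, or 215, 276 and 242 CPM against 239, 257 and 220.2 CPM. The highest library and the lowest were both of the Apatinib group, and the log2 fold change was 0.03 (SE 0.129). TEAD1 (ENSG00000187079) had 4887, 7330 and 6276 counts against 8540, 9181 and 8529, or 284, 414 and 359 CPM against 493, 505 and 391 CPM. Its mean was lower with Apatinib, with a log2 fold change of -0.39 (SE 0.158), but control replicate 3 lay below Apatinib replicate 2. The TEAD1 value was -0.26 without Apatinib replicate 1 and -0.52 without Apatinib replicate 2. The phosphorylation, location and activity of the YAP protein were not measured in these data.

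**Figure D2:**
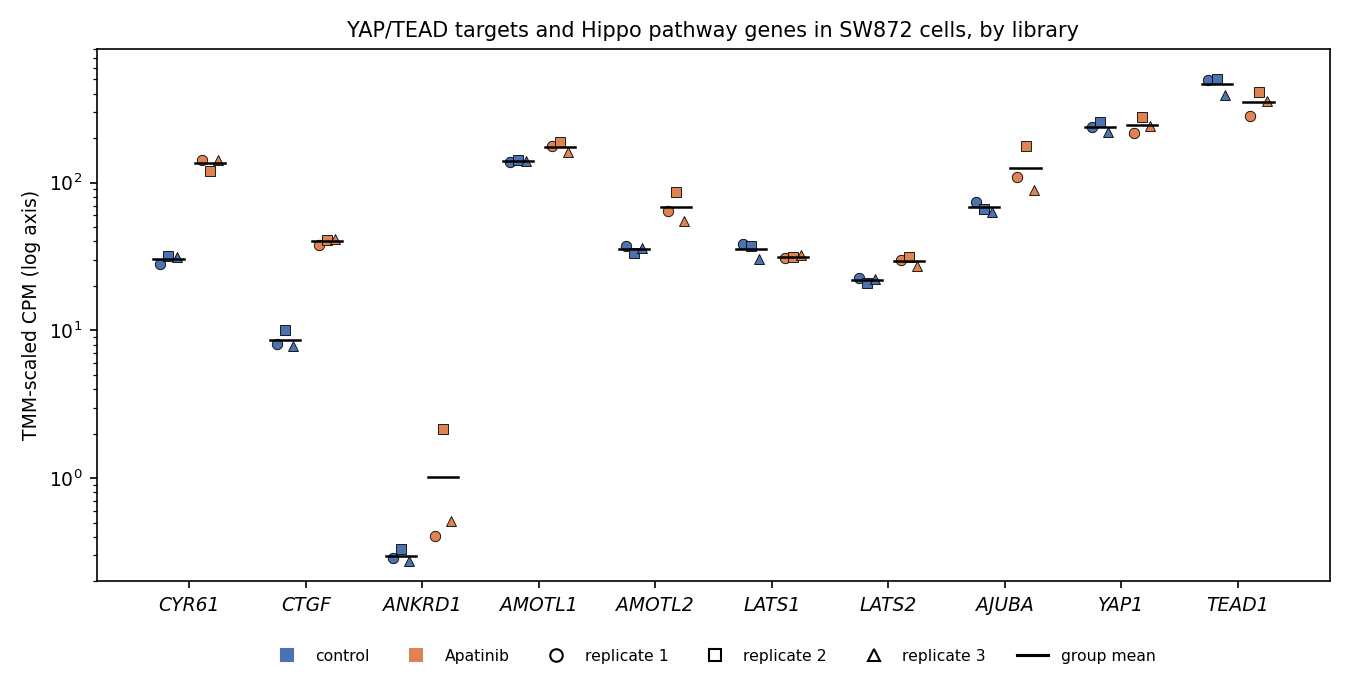
TMM-scaled CPM (log axis) of the 10 genes in each of the 3 control (blue) and 3 Apatinib (orange) libraries, with symbols for replicates 1 to 3 and a bar at the group mean. CYR61 rises from a mean of 30.5 to 135 CPM and CTGF from 8.64 to 40.1 CPM, while the groups overlap for LATS1, YAP1 and TEAD1.

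The plot of the 10 genes by library shows that the spread within a group was uneven. Apatinib replicate 2 was the highest Apatinib library for 7 of the 10 genes and the lowest for CYR61. Control replicate 3 was the lowest control library for 6 genes and the highest for 0. The coefficient of variation among the Apatinib libraries was 4.40% for CTGF and 9.22% for CYR61, against 24.1% for AMOTL2 and 37.2% for AJUBA.

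A differentially expressed gene (DEG) was defined by the study's criteria, which ask for an FDR under 0.05 together with a change of over 0.5 on the log2 scale in either direction, here with edgeR's quasi-likelihood test. Over all 16290 genes tested, 1866 (11.5%) were DEGs, 5.97% higher and 5.48% lower with Apatinib. As a description of the genes chosen, 4 of the 9 in the fit met these criteria, CYR61, CTGF, AMOTL2 and AJUBA, each of them higher, and 3 did without control replicate 1 or control replicate 2. In CPM, groups without overlap were found for 33.2% of all genes tested, 17.5% higher and 15.7% lower with Apatinib, and for 6 of the 9 listed genes, each of them higher. The median log2 fold change of the 9 was 0.43, beside 0.00 over all genes tested. Since the genes were picked with these values known, nothing is read from these counts.

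Levels can be compared between genes only per transcript length, so the order of the 10 genes was taken from the FPKM values. In the control, YAP1 stood highest at 46.2 ± 6.42 FPKM (SD, n = 3), followed by TEAD1 at 38.5 ± 6.44, AJUBA at 13.2 ± 1.46 and AMOTL1 at 12.4 ± 0.144. CYR61 came next at 9.09 ± 0.563 FPKM, before AMOTL2 at 6.33 ± 0.543, LATS1 at 3.51 ± 0.601, CTGF at 3.05 ± 0.433, LATS2 at 2.74 ± 0.162 and ANKRD1 at 0.0919 ± 0.0308. The library ranges of neighbours overlapped for YAP1 and TEAD1, for AJUBA and AMOTL1, for LATS1 and CTGF, and for CTGF and LATS2, so those neighbours were not separated beyond their spread.

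With Apatinib the order by FPKM was YAP1 at 48.2 ± 9.73, CYR61 at 40.8 ± 2.88, TEAD1 at 29.7 ± 6.63 and AJUBA at 24.5 ± 9.03 (SD, n = 3). The library ranges of TEAD1 and AJUBA overlapped. CYR61 thereby moved from the fifth place to the second, with a range overlapping that of YAP1 and apart from that of TEAD1. CTGF moved from the eighth place to the sixth, at 14.7 ± 0.964 FPKM, between AMOTL1 at 15.7 ± 1.69 and AMOTL2 at 12.7 ± 3.23, with ranges that overlapped both neighbours. LATS2 at 3.74 ± 0.370 FPKM now stood above LATS1 at 3.21 ± 0.183, with ranges apart, and ANKRD1 stayed last at 0.350 ± 0.362. The plot of FPKM levels in the control order makes the rise of CYR61 and CTGF past their neighbours visible.

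**Figure D3:**
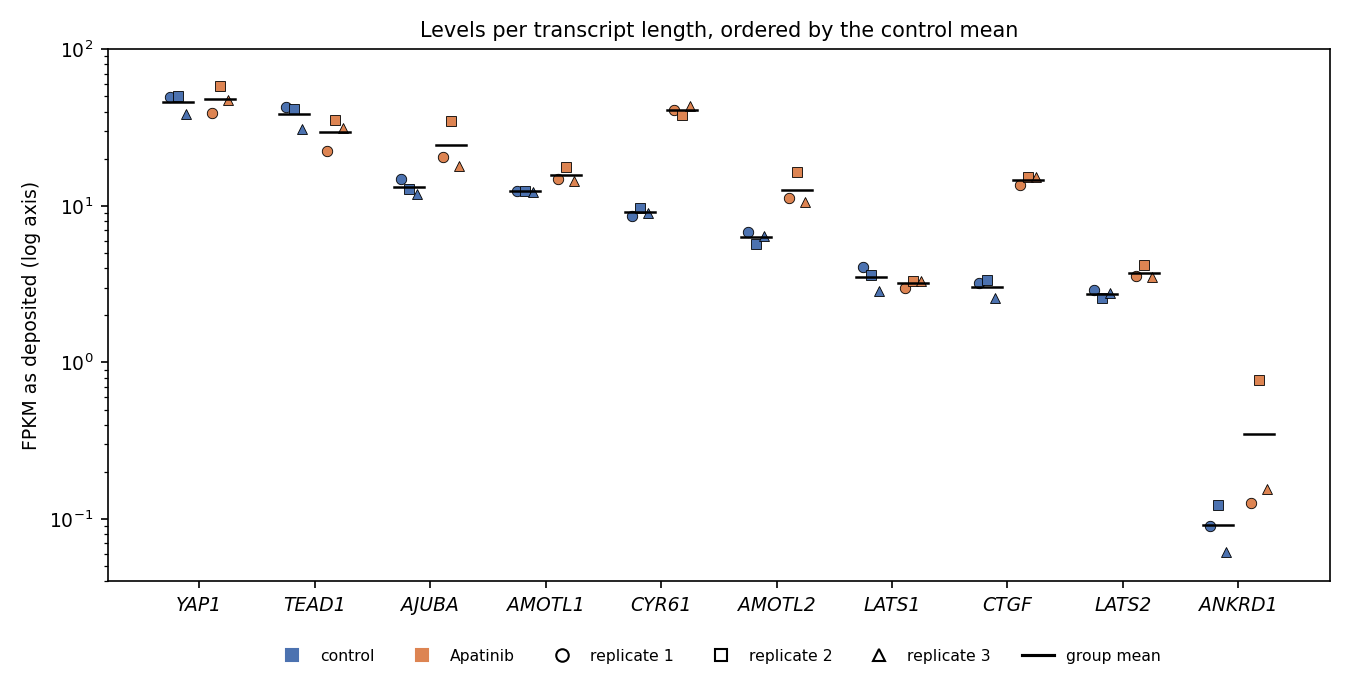
FPKM as deposited (log axis) of the 10 genes, ordered by their control mean, in the 3 control (blue) and 3 Apatinib (orange) libraries, with a bar at the group mean. CYR61 reaches 40.8 FPKM with Apatinib, between YAP1 at 48.2 and TEAD1 at 29.7, from 9.09 FPKM in the control.

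The tests that follow concern other genes of the pathway, on lists drawn up with earlier results of these data known, with FDR values from edgeR over all genes tested. Of 17 further YAP/TAZ targets from a widely used signature, all passed the filter, and 3 (17.6%) were DEGs, each of them higher with Apatinib, beside 11.5% of all genes. In all, 15 of the 17 had a log2 fold change above 0, where 50.3% of all genes did, and the list's median was 0.39. Groups without overlap were found for 10 targets that were higher and for 1, F3, that was lower, beside 17.5% and 15.7% of all genes. The count of DEGs fell from 3 to 1, AXL, without control replicate 1 and without control replicate 2, where 1.65% and 1.8% of all genes were DEGs.

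AXL (ENSG00000167601), a receptor tyrosine kinase, rose. It had 6025, 5256 and 5302 counts with Apatinib against 2818, 3074 and 3960 in the control, or 350.5, 297 and 303 CPM against 163, 169 and 181 CPM. Its groups did not overlap, and its log2 fold change was 0.89 (SE 0.120, edgeR FDR = 0.00358). It was the only one of the 17 targets that met the criteria in all 14 alternative fits.

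GADD45A (ENSG00000116717), a stress-induced gene of growth arrest and DNA damage, had 579, 1710 and 479 counts with Apatinib against 381, 367 and 427 in the control. Apatinib replicate 2 was far above the other libraries. The log2 fold change was 1.35 (SE 0.373, edgeR FDR = 0.0383), and it was 0.57 without Apatinib replicate 2. Without control replicate 1 or control replicate 2 GADD45A was not a DEG, with log2 fold changes of 1.40 and 1.33. It was not a DEG with DESeq2 either (log2 fold change 1.35, SE 0.567, DESeq2 FDR = 0.0811), which called 2 of the targets, AXL and NUAK2. DESeq2 called 6.3% of the 32596 genes in its fit, which kept every gene with at least 1 count. NUAK2 (ENSG00000163545), an AMPK-related kinase, had 125, 127 and 114 counts against 78, 67 and 109, without overlap in CPM, and a log2 fold change of 0.67 (SE 0.189, edgeR FDR = 0.0412). Among the fits that left out a library, NUAK2 was called in 1 of 6, that without control replicate 3 (log2 fold change 0.77), and was 0.55 without control replicate 2.

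MYOF (ENSG00000138119), a membrane repair protein, had the highest control level per length of the 17 targets at 32.8 ± 1.29 FPKM (SD, n = 3), and 39.9 ± 1.48 with Apatinib. Its CPM groups did not overlap, but its log2 fold change of 0.27 (SE 0.108) did not pass the test (edgeR FDR = 0.120). The targets that were not DEGs ranged in log2 fold change from -0.31 for F3, tissue factor, to 0.51 for FJX1. NT5E, the ecto-enzyme that forms adenosine, had an edgeR FDR of 0.0491 but stayed under the fold change limit at 0.47. Of the 12 targets with a matched RefSeq promoter, 5 (AXL, FOXF2, PTPN14, NUAK2 and TGFB2) held the TEAD hexamer, in 5 of their 13 windows, beside 14% of all windows. The SRF targets described further on held it in 7 of 35 windows, from 6 of 15 matched genes, so nothing particular to the YAP/TAZ targets is read from this count.

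**Figure D4:**
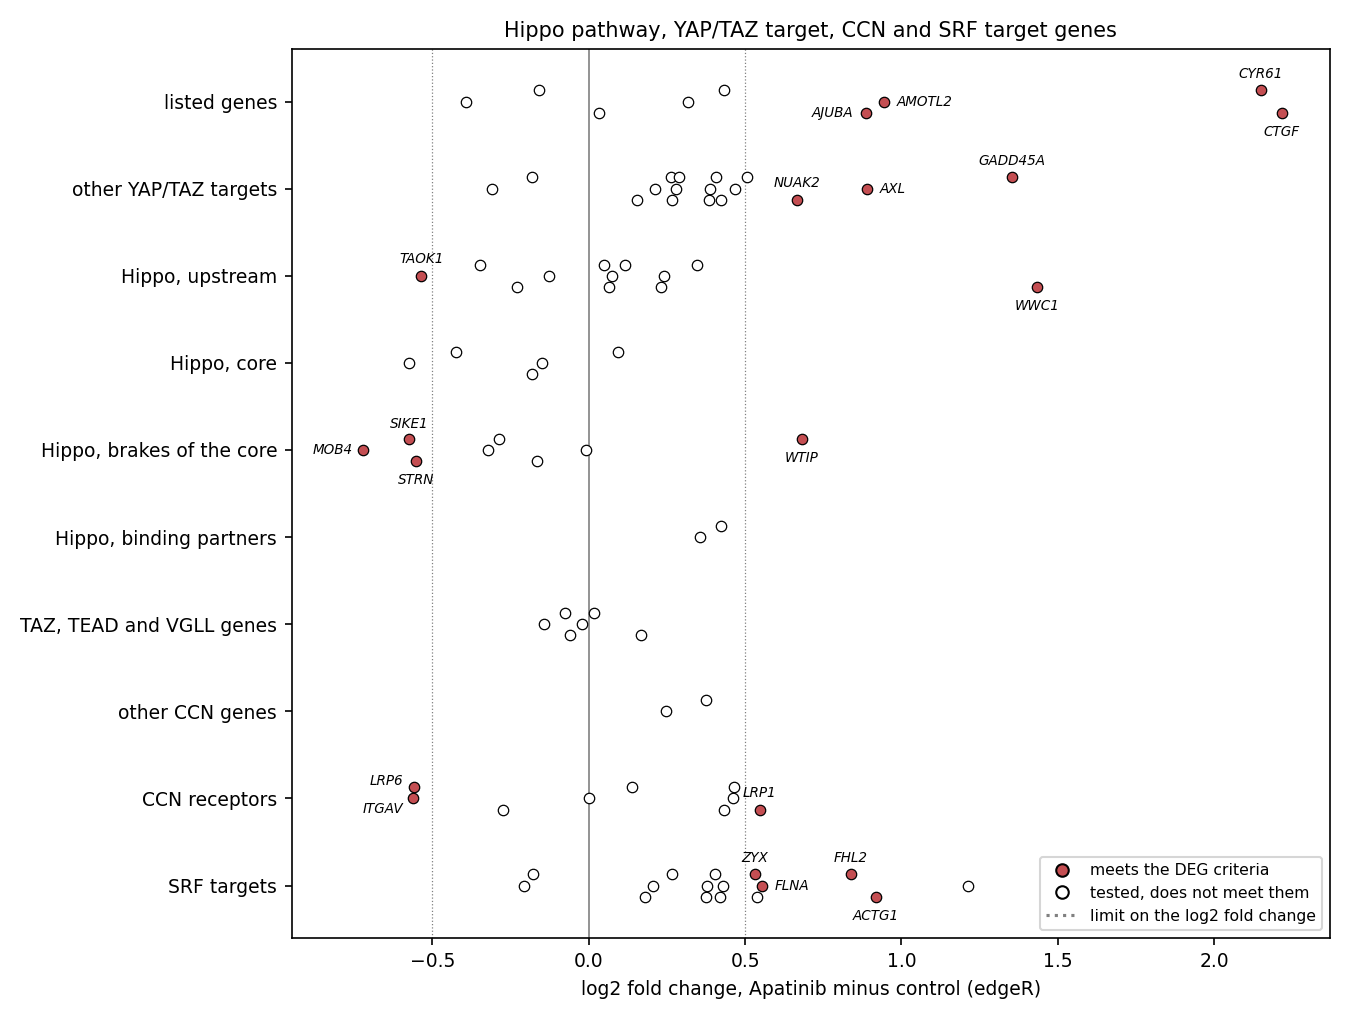
Log2 fold change, Apatinib minus control, from edgeR for the tested genes of each list (1 circle per gene), with DEGs in red and named and dotted lines at the fold change limit of 0.5 in either direction. The other YAP/TAZ targets lie mostly right of 0 (15 of 17), as do the SRF targets (14 of 16). The brakes of the core lie mostly left (7 of 8), and the TAZ, TEAD and VGLL genes close to 0.

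The other Hippo pathway genes lay on both sides of 0. Of 35 listed, 33 passed the filter (VGLL1 and VGLL2 did not), and 6 (18.2%) were DEGs, beside 11.5% of all genes. A log2 fold change above 0 was found for 14 and below 0 for 19, with a median of -0.06. The plot of log2 fold changes by pathway group shows where they lay.

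Among 12 genes acting upstream of the core, WWC1 rose and TAOK1 fell. WWC1 (ENSG00000113645), which encodes KIBRA, a scaffold that activates LATS kinases, had 97, 103 and 78 counts with Apatinib against 36, 45 and 30 in the control. Its groups stood apart, with a log2 fold change of 1.43 (SE 0.254, edgeR FDR = 0.00847), and it met the criteria in all 12 alternative fits that tested it. TAOK1 (ENSG00000160551), a kinase that phosphorylates the MST kinases, was at 182, 192 and 235 CPM against 311, 333 and 238 CPM. Its log2 fold change was -0.53 (SE 0.153, edgeR FDR = 0.0423), and Apatinib replicate 3 lay just under control replicate 3.

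Of the 8 brakes, genes of the STRIPAK phosphatase complex and LIM proteins that limit the MST or LATS kinases, 7 had a log2 fold change below 0 and 4 were DEGs, where 50.3% of all genes were above 0 and 11.5% were DEGs. The count was 0 without Apatinib replicate 1, without control replicate 1 and without control replicate 2, where 4.73%, 1.65% and 1.8% of all genes were DEGs. In edgeR 4 genes had an unadjusted p under 0.05 each time. The share of all genes under that p was not counted, so nothing is read from such counts here or below. DESeq2 called 4 with all libraries, beside 6.3% of all genes in its fit. The STRIPAK scaffold STRN and its partner SIKE1 fell, with log2 fold changes of -0.55 (SE 0.144, edgeR FDR = 0.0318) and -0.57 (SE 0.162, edgeR FDR = 0.0404). For SIKE1, Apatinib replicate 3 at 49.5 CPM lay just under control replicate 3 at 52.1 CPM. MOB4 (ENSG00000115540), another STRIPAK subunit, had 155, 243 and 196 counts with Apatinib against 371, 382 and 300 in the control. Its level was 9.02, 13.7 and 11.2 CPM against 21.4, 21.0 and 13.7 CPM, with Apatinib replicate 2 barely under control replicate 3. It fell by 0.72 on the log2 scale (SE 0.209, edgeR FDR = 0.0438), but it shares exons on the same strand with the readthrough gene HSPE1-MOB4, so its counts are uncertain. WTIP (ENSG00000142279), a relative of AJUBA with the same inhibitory role towards LATS, rose by 0.68 on the log2 scale (SE 0.190, edgeR FDR = 0.0393), from 6.40 ± 1.28 to 10.3 ± 1.01 CPM (SD, n = 3). Among the 6 fits that left out a library, STRN was called in 3, MOB4 in 2 and SIKE1 and WTIP in 1 each.

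Among the 5 core kinases and adaptors (STK3, STK4, SAV1, MOB1A and MOB1B), edgeR called 0 DEGs, with 2 genes at an unadjusted p under 0.05. DESeq2 called 1, the adaptor MOB1B, which had a log2 fold change of -0.58 (SE 0.192, edgeR FDR = 0.0680) and shares exons on the same strand with DCK, so that its counts are uncertain. The edgeR count was 2, MOB1A and MOB1B, without control replicate 3 and 1, MOB1A, without Apatinib replicate 3, and MOB1B was also called with no filter on low counts and with the replicate block. In the group of YAP1's relative and the TEAD partners, 6 genes passed the filter. None of the 6 was a DEG or had an unadjusted p under 0.05 with edgeR, and with DESeq2 none was a DEG either.

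WWTR1 (ENSG00000018408), which encodes TAZ, had 3698, 4698 and 4187 counts with Apatinib against 4464, 4832 and 5133 in the control. Its log2 fold change was -0.08 (SE 0.123, edgeR FDR = 0.720). The other TEAD genes did not pass either, with TEAD2 at a log2 fold change of -0.06 (SE 0.128), TEAD3 at 0.17 (SE 0.142) and TEAD4 at -0.14 (SE 0.164), and the groups overlapped in each. The FPKM level of WWTR1 in the control, 50.7 ± 3.27 (SD, n = 3), was close to that of YAP1.

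The count of Hippo DEGs moved with single libraries, as did that over all genes. It fell from 6 to 1, WWC1, without Apatinib replicate 1, without control replicate 1 and without control replicate 2, and it was 3 without Apatinib replicate 2, 5 without Apatinib replicate 3 and 7 without control replicate 3. Over all genes, the share of DEGs went from 11.5% to 4.73%, 1.65% and 1.8% in the fits that left 1 Hippo gene. The plot of fits with a library left out shows the same for single genes. CYR61 kept a log2 fold change of 2.09 to 2.23 and CTGF one of 2.15 to 2.34, whereas AMOTL2, AJUBA and GADD45A were lowest without Apatinib replicate 2.

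**Figure D5:**
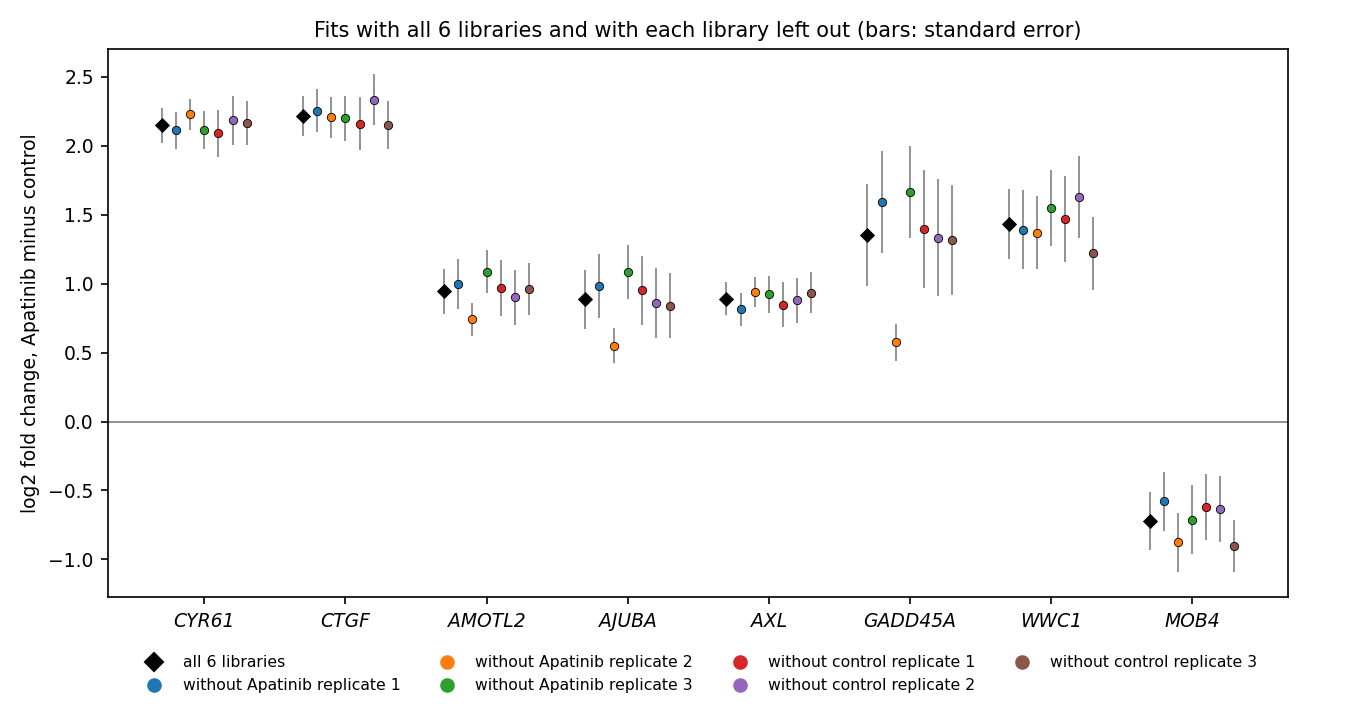
Log2 fold changes from edgeR (points, with bars of 1 SE) for 8 genes with all 6 libraries (black diamonds) and with each library left out in turn (colours). CYR61 and CTGF stay above 2, AXL stays at 0.81 to 0.94, and GADD45A drops from 1.35 to 0.57 without Apatinib replicate 2.

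Of the other 4 genes of the CCN family, 2 were tested and neither passed. These CCN genes, NOV and WISP1, encode secreted regulators of matrix and growth and had log2 fold changes of 0.25 (SE 0.138, edgeR FDR = 0.249) and 0.38 (SE 0.198, edgeR FDR = 0.224). NOV had 981, 781 and 1038 counts with Apatinib against 748, 834 and 1007 in the control, and WISP1 had 126, 94 and 139 against 94, 93 and 116. Their groups overlapped in CPM. WISP2, with at most 7 counts in a library, and WISP3, with at most 4, were not tested.

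Of 11 receptors to which CCN proteins bind, 9 were tested and 3 were DEGs. The endocytic receptor LRP1 rose from 354 ± 10.2 to 517 ± 51.7 CPM (SD, n = 3), a log2 fold change of 0.55 (SE 0.120, edgeR FDR = 0.0175). The Wnt coreceptor LRP6 fell from 80.7 ± 7.48 to 54.8 ± 4.65 CPM, a log2 fold change of -0.56 (SE 0.126, edgeR FDR = 0.0194). The integrin subunit ITGAV had a log2 fold change of -0.56 (SE 0.168, edgeR FDR = 0.0486), but its groups overlapped, since control replicate 3 at 113 CPM lay below Apatinib replicate 3 at 115 CPM. Together with the CCN genes this gave 3 DEGs of 11 tested (27.3%, beside 11.5% of all genes), 1 without Apatinib replicate 1 and 1 without Apatinib replicate 2. The same list had 4 DEGs without Apatinib replicate 3 or control replicate 3. Without control replicate 1 and without control replicate 2 edgeR called 0 of the 11, with 6 at an unadjusted p under 0.05 each time. With all libraries DESeq2 called 3 of 15, beside 6.3% of all genes in its fit.

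CYR61 and CTGF are also induced by SRF, which answers actin assembly, so a list of 18 SRF targets was set beside them. Of 16 tested, 4 (25.0%, beside 11.5% of all genes) were DEGs, each of them higher with Apatinib: ACTG1 (log2 fold change 0.92, SE 0.208, edgeR FDR = 0.0197), FHL2 (0.84, SE 0.172, edgeR FDR = 0.0139), FLNA (0.56, SE 0.135, edgeR FDR = 0.0250) and ZYX (0.53, SE 0.135, edgeR FDR = 0.0293). ACTG1 encodes a cytoplasmic actin with near-identical copies in the genome, so its counts are uncertain, FHL2 is a LIM-domain cofactor, FLNA crosslinks actin and ZYX encodes a focal adhesion protein. The list had a median log2 fold change of 0.41, and 14 of the 16 were above 0, where 50.3% of all genes were. Groups without overlap were found for 9 that were higher and 1 that was lower, beside 17.5% and 15.7% of all genes. The YAP/TAZ targets were much alike in this, so nothing particular to them is read from their direction. The count of SRF DEGs was 1 without Apatinib replicate 1 and 5 without control replicate 3. Leaving out control replicate 1 or control replicate 2 gave 0, with 7 and 8 genes at an unadjusted p under 0.05 in edgeR. DESeq2 called 4 of 18 with all libraries, beside 6.3% of all genes in its fit.

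The genes most like CYR61 and CTGF over the 6 libraries were sought by the Pearson correlation of log2 CPM among 10328 genes with a mean of at least 10 CPM. With 6 points in 2 groups, such a correlation includes the difference between the groups, which both genes were chosen for, and no p is given. CYR61 and CTGF had r = 0.992 with each other. For CYR61 the 5 closest were RAB7L1 (0.997), CLMN (0.996), SLC2A10 (0.995), BASP1 (0.994) and TXNRD1 (0.994), and for CTGF they were ZNF516 (0.998), BASP1 (0.998), TXNRD1 (0.998), MICAL1 (0.997) and TOMM7 (0.997). BASP1 and TXNRD1 were among the 5 of both genes. BASP1, a membrane-bound signalling protein, rose from 31.2 to 78.0 CPM and TXNRD1, thioredoxin reductase, had 569 CPM in the control and 768 CPM with Apatinib.

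Overlapping annotation could bear on the counts, because the strand setting of the counting is not given in the sources used here. In GENCODE release 29, exons of 6 of the 10 listed genes overlap those of another gene. For 5 of these partners the count was at most 3 in any library, and that of the partner of LATS1 was not analysed here. Of the other DEGs named above, AXL, TAOK1, ITGAV, LRP1, FHL2, FLNA and ZYX overlap exons of genes on the opposite strand, and TAOK1 also overlaps the microRNA gene MIR4523 on the same strand, so that its counts are uncertain too.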

How the data were processed

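RNA of 3 Apatinib and 3 control libraries of SW872 cells was analysed. The submitters' processing notes name CASAVA, STAR 2.7.1a and the build hg19; the counting program, its annotation and its strand setting are not given in the sources used here. The authors deposited counts per gene, as whole numbers without normalization, for all 6 samples in a single table. They also deposited FPKM values, which the authors scaled to transcript length and depth, in a file per sample. A column of another sample's values inside a file of FPKM values was not used (1 column). The study compared the groups with DESeq2 and its own DEG criteria.

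Groups came from the sample titles. The count table was fitted with edgeR 4.0.16 under R 4.3.3, using filterByExpr, TMM scaling and the quasi-likelihood test without covariates, with p values adjusted over the 16290 genes tested by the Benjamini-Hochberg method. The SE of a log2 fold change was taken from the F statistic. Log2 CPM used a prior count of 2. Depth was 17043314 to 22067558 counts per library, and the common biological coefficient of variation was 0.149. Pairs of libraries were compared over genes whose counts in both summed to 50 or more, where sampling noise alone gives a chi-square per gene of about 1. The fits were also run on simulated data with independent libraries and the same dispersion for every gene. These lack the closeness of control replicates 1 and 2, so nothing is read from that run.

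The 10 genes, the YAP/TAZ target, Hippo, CCN and SRF lists and the marker lists were chosen, and written by hand, with earlier results of these data known. The genes named were the 10 listed genes, every DEG of the lists, WWTR1, TEAD2, TEAD3, TEAD4 and the other CCN genes, the target with the highest control level, and the 5 genes most like CYR61 and CTGF. NT5E, F3, FJX1, MOB1A, MOB1B, ACTA2, SRC and the markers were named after their values were seen. FOXF2, PTPN14 and TGFB2 were named for a promoter match. STK3, STK4 and SAV1 were named as core genes, and VGLL1 and VGLL2 as genes that did not pass the filter. Identifiers were used as the table pairs them with symbols. ITGB3 stood in 2 rows and was settled by its identifier in GENCODE release 29. Promoter windows came from RefSeq on GRCh38.p14 (250 bases before to 50 after each start) and no coordinate was joined to the hg19 counts.

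Replicate numbers did not pair the libraries: the deviations from the group means of libraries with the same number had correlations of -0.26, 0.08 and -0.22 over genes. The alternatives tried were DESeq2 1.42.0, edgeR with RLE size factors, all genes with at least 1 count, genes with at least 10 counts in every library, the replicate number as a block, control replicates 1 and 2 summed, limma 3.58.1 on log2 FPKM values with a pseudocount of 1 or of 0.1 where the mean FPKM passed 0.5, each library left out in turn, and an FDR limit alone.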

Additional observations from a re-analysis of the deposited data

How the results depend on the processing

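The log2 fold changes of CYR61 and CTGF were 2.15 and 2.22 and stayed within 2.05 to 2.23 and 1.96 to 2.34 under the 14 alternative fits. Leaving out single libraries gave 2.09 to 2.23 for CYR61 and 2.15 to 2.34 for CTGF. The lowest CTGF value, 1.96 with limma on log2(FPKM + 1), comes from a pseudocount that shrinks the change of a low gene. As a description, the number of listed genes meeting the criteria was 4, and 3 to 5 under the alternatives. It was 5 with no filter on low counts, where ANKRD1 was called and 7.85% of all genes were DEGs. It was also 5 with an FDR limit alone, where LATS2 was added, and 3 where AJUBA was lost. The DESeq2 fit also held ANKRD1 but did not call it, and the number there was 4. The sign of YAP1 turned in 2 of the 14 fits.

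The list counts moved further. With control replicates 1 and 2 summed, the DEGs fell from 3 to 1 for the YAP/TAZ targets, from 6 to 1 for the Hippo genes, from 3 to 0 for the CCN genes and receptors and from 4 to 0 for the SRF targets, with 6 CCN and 8 SRF genes at an unadjusted p under 0.05 in edgeR. With limma on either FPKM scale the counts were 1 for the targets, 1 for the Hippo genes and 4 for the SRF targets, with ACTA2 in place of ZYX. The CCN list had 1 on log2(FPKM + 1) and 2 on log2(FPKM + 0.1). Of all genes, 5.03% and 5.12% were DEGs on these scales. An FDR limit alone gave 5 for the CCN list and 2102 over all genes. Leaving out a library gave 1 to 3 for the targets, 1 to 7 for the Hippo genes, 0 to 4 for the CCN list and 0 to 5 for the SRF targets, lowest without control replicate 1 or 2. Over all genes the DEGs numbered 1866, but 292 with those controls summed, 275 and 300 without control replicate 1 and 2, 795 without Apatinib replicate 1 and 796 and 810 with limma, where 556 and 578 were higher, against 973 of the 1866. They numbered 2030 without Apatinib replicate 3 and 2594 without control replicate 3, where 1102 were higher and 1492 lower, against 973 and 893. The cause was not tested.

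With the replicate number as a block, 4 of the listed genes, 2 targets, 7 Hippo, 3 CCN and 4 SRF genes met the criteria, and 2215 of all genes did. CYR61 was then at 2.15 and CTGF at 2.22. The numbers are shared by labels only, so the block has no pairing behind it.

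With 3 libraries a group, calls passed or failed with the choice of libraries, also well above the fold change limit (GADD45A at 1.40 missed the FDR limit without control replicate 1), and ANKRD1, WISP2 and WISP3 had too few counts to pass the filter.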
